A study of Mus musculus with 6 samples.

Results

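Nonsense-mediated decay factors are described here in NIH-3T3, a mouse fibroblast line of the NIH/Swiss strain that is long established in culture. The members were 9 genes named UPF or SMG, namely Upf1, Upf2, Upf3a, Upf3b, Smg1, Smg5, Smg6, Smg8 and Smg9, and all 9 were found by symbol among the 16540 genes of the deposited table. They were proposed with the difference between pyruvate carboxylase (PC) guides and control already known, so their values in that comparison are a description and carry no test.

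The study used 6 libraries of polyadenylated RNA, 2 for each of 3 guide RNAs. The control guide, R26 sg1, takes its name from the Rosa26 locus. The guides PC sg2 and PC sg5 take theirs from pyruvate carboxylase, a mitochondrial enzyme encoded by Pcx in the mouse. All cells, controls included, carried Cas9 and a guide from lentivirus, were selected with 2 ug/mL puromycin and were kept at 0.2 mM glutamine for 48 h, with 10% dialyzed serum. They were uncloned pools, so edited and unedited cells may be mixed, and the share of edited cells is not analysed here. Whether a guide's 2 libraries stem from separate cultures is not stated, so the spread between them may be technical.

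Nonsense-mediated decay (NMD) removes messenger RNAs whose stop codon is read as premature, such as one that lies well upstream of an exon junction, and it also lowers many normal transcripts. UPF1, an RNA helicase, meets a terminating ribosome together with the release factors. UPF2 and UPF3B bridge UPF1 to the exon junction complex, and the SMG1 kinase, held in check by SMG8 and SMG9, phosphorylates UPF1. Phosphorylated UPF1 then recruits SMG6, an endonuclease, and SMG5, which leads to decapping and deadenylation. Several UPF and SMG transcripts are themselves NMD substrates in mammalian cells, a known feedback loop. NMD is also known to be slowed by stress that phosphorylates the initiation factor eIF2.

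Values are normalised read counts, which are reads divided by a size factor of the library and are not corrected for gene length. Depth lay between 22895172 recovered reads (PC sg5 replicate 2) and 71710049 (control replicate 2), so 3 reads, the floor of counting, came to between 2.18 and 6.41 normalised counts. The lowest member value, 842 in Smg9, was far above it. Pcx, the targeted gene, fell from a control mean of 2964 normalised counts to 345 under PC sg2 and 715 under PC sg5, with SDs of 71.7, 42.2 and 2.04 over 2 libraries each. All 8 fibroblast markers were abundant in every library, from 10049 normalised counts for Pdgfrb in PC sg2 replicate 2 upward, and all 8 were lower in the PC libraries (median log2 fold change -1.33). Of 12 markers of other cell types 8 are not analysed here, and Cdh1, Cd68, Pecam1 and Des ranged from 8.55 to 90.6 normalised counts. At these low counts Cdh1 and Des were lower in every PC library (log2 fold changes -2.18 and -2.19). Cd68 and Pecam1 overlapped with the controls. The part of these shifts in the results below was not tested. In bulk RNA, fewer cells that express a gene and less RNA per cell cannot be told apart.

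The promoter windows of 3 members are shown, in the order Smg8, Upf2 and Upf3a. Smg8 had the largest rise over both guides together, and Upf3a was the only member called lower. Upf2 held, with Smg1, the most matches to one motif. Each window is the 250 bases before the RefSeq start (GRCm38.p6), holds no annotated exon and is given 5′ to 3′ on the gene's strand. The windows lie at chr11:87086778-87087027 (minus strand), chr2:5951219-5951468 (plus strand) and chr8:13785365-13785614 (plus strand). Capitals mark GGGCGG, the GC box bound by SP factors, on either strand.
Smg8: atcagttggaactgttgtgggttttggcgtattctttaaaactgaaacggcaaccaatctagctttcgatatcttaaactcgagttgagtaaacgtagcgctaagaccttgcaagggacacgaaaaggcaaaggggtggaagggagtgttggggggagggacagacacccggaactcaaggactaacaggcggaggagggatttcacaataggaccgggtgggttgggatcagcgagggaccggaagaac
Upf2: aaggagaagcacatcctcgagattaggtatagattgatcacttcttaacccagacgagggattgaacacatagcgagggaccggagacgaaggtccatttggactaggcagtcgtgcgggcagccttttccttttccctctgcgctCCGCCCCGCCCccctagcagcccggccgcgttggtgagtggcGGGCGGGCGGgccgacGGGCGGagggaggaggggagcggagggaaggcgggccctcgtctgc
Upf3a: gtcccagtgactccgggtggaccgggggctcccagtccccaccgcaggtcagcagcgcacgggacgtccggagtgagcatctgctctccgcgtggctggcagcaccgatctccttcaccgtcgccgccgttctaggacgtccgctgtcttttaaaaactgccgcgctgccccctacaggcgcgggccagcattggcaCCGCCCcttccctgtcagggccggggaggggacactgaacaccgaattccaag

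All 9 members had 1 window of this length, and 7 motifs were searched in it on both strands with overlaps allowed. Annotated exons of any gene cover 250 bases of the window of Smg6, 139 of Smg5, 56 of Smg1 and 9 of Smg9, and 0 in the other 5. GGGCGG occurred in 7 of 9 members, with 5 matches each in Upf2 and Smg1, and in 35.4% of 27025 genes with a window. These 27025 genes are not limited to those tested here, and a gene counted if any of its windows matched. The members are thus set beside an unlike set of genes. GGGCGG was not found in the windows of Smg8 and Smg5. GC content of the members' windows ran from 50.8% in Smg8 to 72.8% in Upf1, against a median of 52.4% over all windows. The E-box CACGTG (6.86% of genes), the amino acid response motif TGATGNAA (3.91%) and the cyclic AMP response motif TGACGTCA (1.77%) were in 0 of 9. CCGGAAG, an ETS core, was in Smg8 (7.83% of genes), GCGCATGC, most of an NRF1 motif, in Upf1 (2.56%), and AAGATGG, a YY1 core, in Upf3b (5.18%). These matches describe letters in the windows only.

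The annotated transcripts differed in the features through which a transcript can become an NMD substrate. In the coding transcript chosen for each gene, the 3′ untranslated region was 4233 bases long in Smg1, longer than in 94.4% of 13120 tested genes, and 221 bases in Smg8, longer than in 14.5%. The other members had 400 bases in Smg9, 719 in Upf3a, 834 in Upf3b, 958 in Upf1, 1230 in Smg5, 1261 in Upf2 and 1498 in Smg6, around a median of 983 over all genes. The leader held 1 upstream ATG in each of Upf2, Smg1, Smg5 and Smg9 and 0 in the other 5. Only Upf1 had an exon junction after its stop codon, as 3.90% of the 13120 genes do. The junction lies 3 bases behind the stop, so this stop is not well upstream of it. Smg1, Smg5 and Smg6 each had 1 annotated transcript classed as an NMD target, a class that 28.1% of the genes have. The counts add all transcripts of a gene, so a shift between a productive and an NMD-targeted form cannot be seen in them.

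With both PC guides, 6 of 9 decay factors were higher than in the controls, Upf3a was lower, and Upf3b and Smg6 stayed close to the control level. The largest differences were in Smg8 and Smg5, at about 1.6 times the control. Smg5 came before Smg8 with PC sg2 alone (log2 fold changes 0.69 and 0.66) and, for both guides, without control replicate 1 (0.68 and 0.66). By limma with an adjusted p under 0.05, the members' counts were 6 called higher and 1 called lower, beside 34.3% called higher and 33.6% called lower among all genes tested. Likewise all 4 PC libraries lay above both controls for 6 members and below them for 1, against 36.6% and 36.6% of all genes. The comparison was known when the members were chosen, so nothing is read from these counts. The median log2 fold change of the 9 was 0.32, and that of all 16526 genes tested was -0.01. All 9 passed the filter on low values, which required 2 or more libraries with 10 or more normalised counts.

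**Figure D1:**
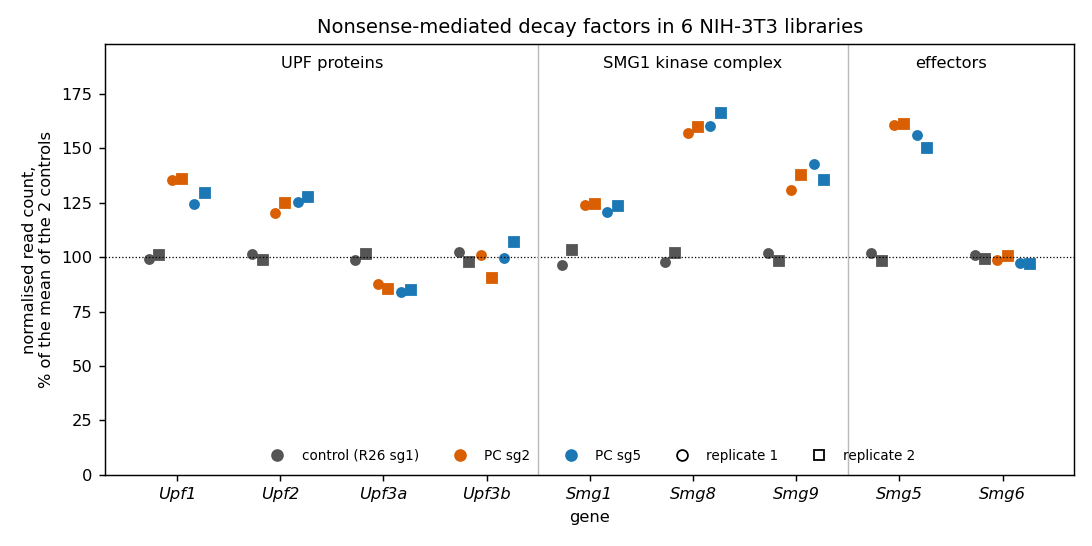
Each point is 1 library, given as a percent of the mean normalised read count of the 2 control libraries (vertical axis), for the 9 genes grouped by role (horizontal axis). Smg8 and Smg5 lie highest in all 4 PC libraries, Upf3a lies below the controls, and the points of Upf3b and Smg6 overlap with the controls.

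Among the UPF proteins, the helicase gene Upf1 (chromosome 8, 70331525 to 70353278, minus strand) read at 7752 and 7890 normalised counts under the control guide, at 10608 and 10629 under PC sg2, and at 9740 and 10147 under PC sg5. All 4 PC libraries lay above both controls, and the PC sg2 libraries lay above the PC sg5 libraries. Taking both guides against control, its log2 fold change came to 0.39 ± 0.03 (SE). Exons of Cers1 and Gdf1 cover 1.47% of its exon bases. Upf2, which encodes the bridge between UPF1 and UPF3 (chromosome 2, 5951469 to 6056703, plus strand), read at 3151 and 3073 under the control guide, at 3738 and 3890 under PC sg2, and at 3906 and 3976 under PC sg5. It too was higher in every PC library, with a log2 fold change of 0.32 ± 0.04 (SE).

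The UPF3 paralogs differed from each other. UPF3B is the main link to the exon junction complex, while UPF3A can take its place weakly and has been described as a partial antagonist. Upf3a (chromosome 8, 13785615 to 13799193, plus strand) read at 3351 and 3451 normalised counts under the control guide, at 2977 and 2898 under PC sg2, and at 2863 and 2894 under PC sg5. Every PC library lay below both controls, and the log2 fold change was -0.23 ± 0.04 (SE). Upf3b (chromosome X, 37091678 to 37110322, minus strand) read at 1771 and 1693 under the control guide, at 1751 and 1565 under PC sg2, and at 1723 and 1851 under PC sg5. Its groups overlapped and its log2 fold change was -0.01 ± 0.05 (SE), with a sign that turned under 1 other scaling (total counts, 0.03) and without control replicate 1 (0.02), PC sg2 replicate 2 (0.03) or PC sg5 replicate 1 (0.02). The ratio of Upf3b to Upf3a reads was therefore higher in the PC libraries, with 0.540 to 0.640 against 0.490 and 0.529 under the control guide.

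All 3 genes of the SMG1 kinase complex were higher, and Smg8 more so than Smg1. Smg1 (chromosome 7, 118131308 to 118243670, minus strand) read at 13627 and 14581 normalised counts under the control guide, at 17506 and 17526 under PC sg2, and at 17046 and 17429 under PC sg5, a log2 fold change of 0.30 ± 0.03 (SE). Smg8, whose product inhibits the kinase (chromosome 11, 87077732 to 87086774, minus strand), read at 1565 and 1629 under the control guide, at 2509 and 2550 under PC sg2, and at 2558 and 2655 under PC sg5. The PC mean was 161% of the control mean and the log2 fold change 0.69 ± 0.04 (SE). Smg9, the partner of SMG8 (chromosome 7, 24399619 to 24422778, plus strand), read at 875 and 842 under the control guide, at 1122 and 1184 under PC sg2, and at 1225 and 1163 under PC sg5, a log2 fold change of 0.45 ± 0.06 (SE). For these 3 genes all 4 PC libraries lay above both controls, as they did in 36.6% of all genes tested.

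Of the effectors that act on phosphorylated UPF1, Smg5 was higher and Smg6 was not. Smg5 (chromosome 3, 88336260 to 88362338, plus strand) read at 5586 and 5384 normalised counts under the control guide, at 8807 and 8850 under PC sg2, and at 8565 and 8232 under PC sg5. Its PC mean was 157% of the control mean, its log2 fold change was 0.65 ± 0.03 (SE), and the groups did not overlap. The endonuclease gene Smg6 (chromosome 11, 74925823 to 75164448, plus strand) read at 3515 and 3442 under the control guide, at 3431 and 3496 under PC sg2, and at 3389 and 3371 under PC sg5. Its groups overlapped, and the log2 fold change was -0.02 ± 0.04 (SE) with a sign that turned under 1 other scaling. Exons of Srr and Gm12333 cover 2.87% of its exon bases.

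Ratios of reads within a library do not depend on how libraries were scaled. The ratio of Smg5 to Smg6 reads was 1.59 and 1.56 under the control guide, 2.57 and 2.53 under PC sg2, and 2.53 and 2.44 under PC sg5. Its mean went from 1.58 ± 0.02 (SD, n = 2) to 2.52 ± 0.05 (SD, n = 4). In the kinase complex, the ratio of Smg8 to Smg1 went from 0.113 ± 0.002 (SD, n = 2) to 0.148 ± 0.004 (SD, n = 4), whereas the ratios of Smg9 to Smg1 overlapped between the groups (0.0577 and 0.0642 against 0.0641 to 0.0719). The ratio of Upf1 to Upf2 overlapped as well, at 2.46 and 2.57 under the control guide and 2.49 to 2.84 under the PC guides.

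**Figure D2:**
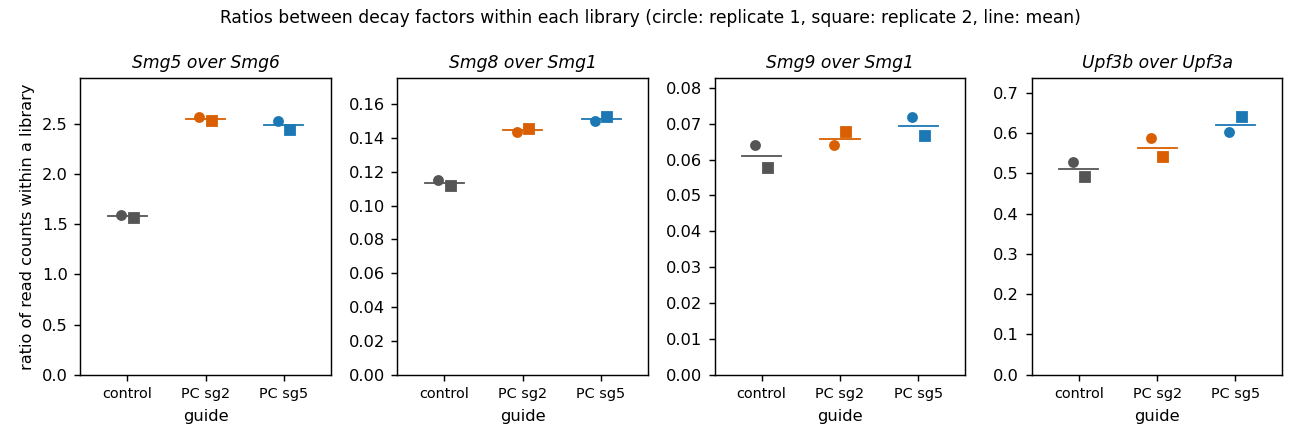
Points give the ratio of read counts of 2 genes within each library (vertical axis, from 0) for the control, PC sg2 and PC sg5 libraries (horizontal axis), and lines give group means. Smg5 over Smg6 and Smg8 over Smg1 are well apart between control and PC libraries, Upf3b over Upf3a is closer, and the groups overlap for Smg9 over Smg1.

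Levels of different genes can be compared only per length. In normalised counts per kilobase of merged exons, Upf1 was the most abundant member in the controls (mean level 1694), followed by Smg5 (789), Smg1 (588), Upf3a (580), Upf2 (568), Smg8 (496), Upf3b (433), Smg6 (412) and Smg9 (232). The control ranges of Smg1, Upf3a and Upf2 overlapped, so these 3 neighbours did not differ beyond their spread. In the PC libraries Smg8 moved up to rank 3, with a mean level of 798 per kilobase, and Upf3a down to rank 6, with 496. The order depends on the length used: per kilobase of 1 coding transcript, Upf3a was at rank 2 in the controls with a level of 1653, because its merged exons span 5865 bases and that transcript 2057.

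The guides were compared with each other directly, a contrast in which the control libraries do not enter the difference. None of the 9 members passed the threshold for PC sg5 against PC sg2, where 0.242% of all genes (40 of 16526) did. By edgeR and by DESeq2 the count was also 0, although DESeq2 gave no adjusted p for 6 of the 9. At an unadjusted limma p under 0.05 the count was 1 of 9, where 10.6% of all genes had such a p. This was Upf1, with a log2 difference of -0.10 (95% interval -0.16 to -0.03) and a limma adjusted p of 0.286. Smg5 had -0.07 (interval -0.15 to 0.002) and Upf3b 0.11 (interval -0.02 to 0.24). The intervals of all 9 lay between -0.16 and 0.24, so differences between the guides larger than that are outside them, and smaller ones are not excluded. Pcx itself had 1.05 ± 0.08 (SE) between the guides, with more of its RNA left with PC sg5 (limma adjusted p = 6.60e-07, or 0.328 without the intensity trend of the spread).

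The values of each guide against the shared controls stood side by side as follows, and since both use the same 2 control libraries their likeness is no separate support. Upf1 had log2 fold changes of 0.44 with PC sg2 and 0.35 with PC sg5, Smg5 0.69 and 0.61, Smg8 0.66 and 0.71, and Smg9 0.43 and 0.48. For Upf2 they were 0.29 and 0.34, for Smg1 0.31 and 0.29, and for Upf3a -0.21 and -0.24. Upf3b had -0.06 and 0.04, and Smg6 -0.01 and -0.04.

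**Figure D3:**
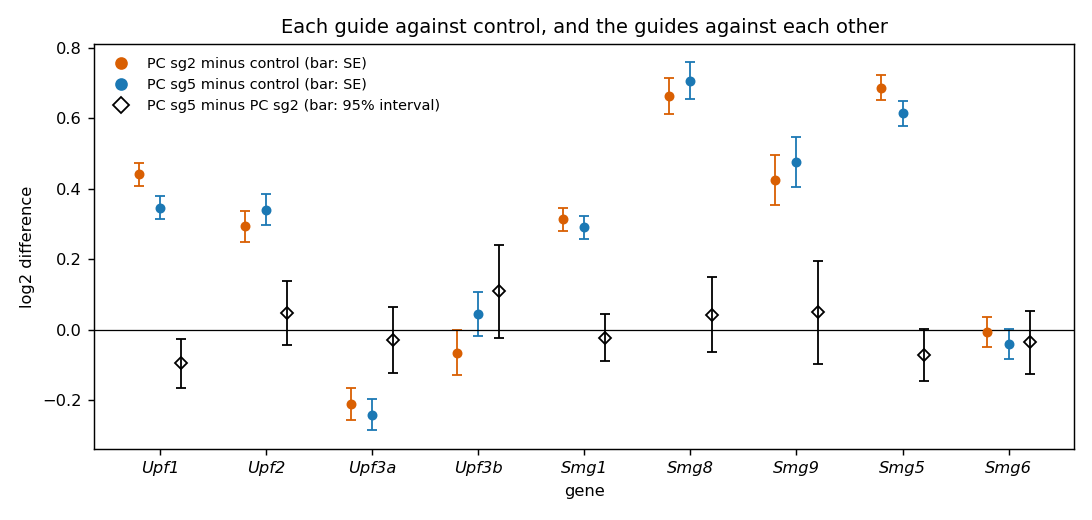
Filled circles give the log2 difference of each guide from the controls with its SE, and open diamonds the log2 difference of PC sg5 from PC sg2 with its 95% interval (vertical axis), for the 9 genes (horizontal axis). The diamonds lie within 0.11 of 0.

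The other genes of the pathway were taken from 4 lists ordered by role, and these genes were tested over all genes with both guides against control. Each count of list genes stands beside the 34.3% called higher and 33.6% called lower over all genes. In the exon junction complex, which marks spliced junctions and is read by UPF2 and UPF3B, 8 of 10 genes rose and 0 fell (median log2 fold change 0.38). Rnps1, a peripheral factor that stimulates NMD, rose from 1807 ± 28.5 (SD, n = 2) to 3784 ± 67.8 (SD, n = 4) normalised counts, a log2 fold change of 1.07 ± 0.04 (SE). The core gene Rbm8a rose by 0.69 ± 0.03, and the smallest rises were in the core helicase gene Eif4a3 (0.22 ± 0.03) and in Pym1 (0.31 ± 0.07), which disassembles the complex. Acin1 (0.0002) and Pnn (0.06) did not pass. Both were chosen for mention after their values were seen.

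Among 13 genes of translation termination and UPF1 cofactors, 8 rose, 2 fell and 3 did not pass (median 0.23). Ncbp1, the large subunit of the nuclear cap-binding complex, rose from 3302 ± 79.0 (SD, n = 2) to 5653 ± 88.7 (SD, n = 4), a log2 fold change of 0.78 ± 0.03 (SE), while Ncbp2, its small subunit, fell by 0.42 ± 0.04. The ATPase gene Ruvbl2, whose product binds SMG1-type kinases, rose by 0.63 ± 0.04, and overlap with Gys1 and Lhb covers 15.4% of its exon bases. Mov10, an RNA helicase partner of UPF1 that is also known as interferon-inducible, fell from 5231 ± 25.7 (SD, n = 2) to 1644 ± 16.4 (SD, n = 4), a log2 fold change of -1.67 ± 0.04. The direction of Mov10 was opposite to that of most of its list.

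In the messenger RNA decay machinery 17 of 32 genes rose, 7 fell and 8 did not pass (median 0.18), and a further listed gene is not analysed here. The split was 21 higher and 4 lower when libraries were scaled by total counts without the 50 most abundant genes, and 17 and 3 without the intensity trend. The exosome, which degrades RNA from the 3′ end, had 9 of the 10 genes tested here higher and 1 lower. The lower one, Exosc10 (-0.12), lost its call under that scaling, without the intensity trend and without control replicate 1 (limma adjusted p 0.0803, 0.0663 and 0.0801). Exosc1 and Exosc2 rose most, by 1.20 ± 0.05 and 1.20 ± 0.04 (SE), to 230% and 229% of the control, with 12.4% of the exon bases of Exosc2 shared with Gm13427. The largest falls were in Pnrc1, a decapping coactivator (-0.80 ± 0.05), and Skiv2l, a helicase of the exosome's SKI partner complex (-0.53 ± 0.03). Of 7 genes of the CCR4-NOT deadenylase, which shortens poly(A) tails, 1 rose, 1 fell and 5 did not pass. The fall, in Cnot3 (-0.09, limma adjusted p = 0.0457), was lost in 8 of 16 alternatives, among them each PC library and control replicate 2 left out (adjusted p 0.0507 to 0.37). With the total-count scaling 4 rose and 0 fell. Exosc10 and Cnot3 were chosen for mention, and the exosome and CCR4-NOT groupings made, after the values were seen.

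Of 16 transcripts known as NMD substrates, 13 rose, 2 fell and 1 did not pass (median 1.00). Several of them are also direct stress-response genes, so the list does not measure decay alone. The largest rises were in Atf3, from 189 ± 28.7 (SD, n = 2) to 2415 ± 150 (SD, n = 4) normalised counts (log2 fold change 3.68 ± 0.07, SE), and Gadd45a (3.43 ± 0.04), with 19.1% of the exon bases of Gadd45a shared with E230016M11Rik. The 5 host transcripts of small nucleolar RNAs, a group singled out after the values were seen, all rose, by 0.92 (Gas5) to 1.77 (Snhg1). Their exons overlap the small RNAs they carry, by 17.8% in Gas5 and 20.9% in Snhg1. Arc, whose messenger RNA has introns behind its stop codon, fell from 162 ± 2.69 (SD, n = 2) to 45.7 ± 10.4 (SD, n = 4), and Map3k14 fell by 0.96 ± 0.06. Tbl2 (0.02) did not pass and was chosen for mention after its value was seen. The genes of these 4 lists named as risen or fallen, other than Exosc10 and Cnot3, had a limma adjusted p of at most 0.000233. Their PC and control libraries did not overlap. Most were named as extremes among genes past the threshold, so this is no separate support. Over all genes, all 4 PC libraries lay above both controls in 36.6% and below them in 36.6%. For PC sg5 against PC sg2, 0 of the 71 list genes passed by limma or edgeR, and 12 of 71 had an unadjusted limma p under 0.05, where 10.6% of all genes did. By DESeq2 the count was also 0. A gene to which DESeq2 gave no adjusted p, as for 6 of the 9 members, could not pass, so this 0 is no separate support. Without PC sg5 replicate 1 the helicase gene Ddx6 passed (log2 difference -0.17, limma adjusted p = 0.0246), and it is named after its value was seen.

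**Figure D4:**
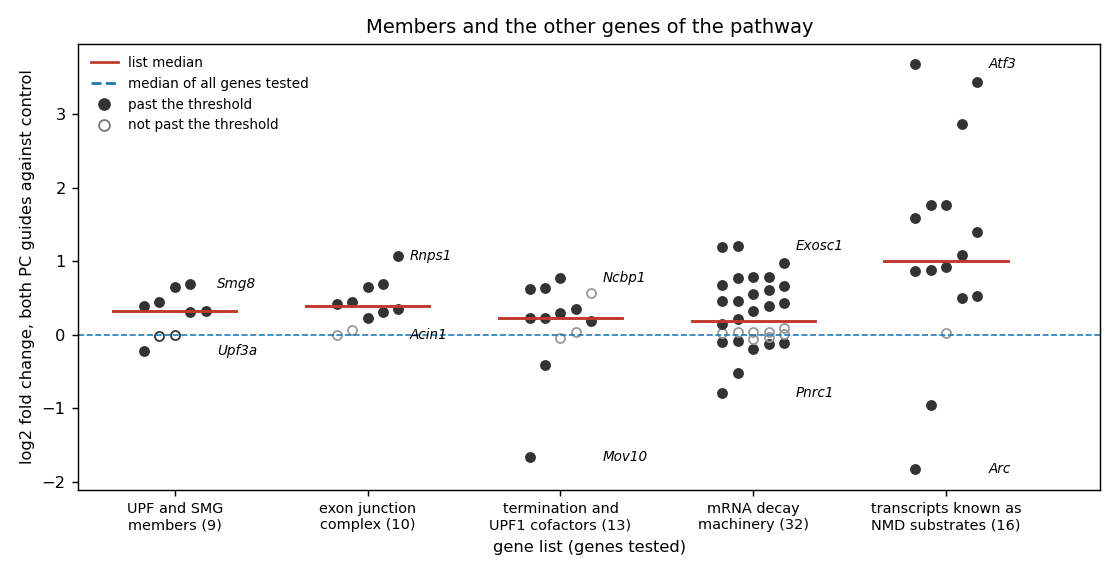
Points give the log2 fold change of both PC guides against control (vertical axis) for the 9 members and for the tested genes of 4 lists (horizontal axis). Red lines give each list's median, from 0.18 for the decay machinery to 1.00 for the substrates, and the dashed line gives the median of all genes tested, -0.01.

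Some members ran close to a gene of these lists over the 6 libraries. By the root mean square difference of centred log2 values, Smg6 was closest to the phosphatase scaffold gene Ppp2r1a (0.03), Smg8 to the exon junction core gene Magoh (0.03) and Upf2 to Sap18 (0.03). These distances describe similar profiles over 3 guides and no more.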

How the data were processed

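Per the submitters' processing notes, the tools were STAR, featureCounts, DESeq2, Trimmomatic and bcl2fastq 2.17 and the build was GRCm38, with no settings, annotation or strand use given. The authors deposited a signal per gene and library, the read count divided by a size factor. Whole reads were recovered from it, since 100% of nonzero values in every library were multiples of 1 step (tolerance 0.01). The kit named in the labels does not mark the strand, so shared exon bases are given beside some of the genes they affect. Other named genes share exon bases too, among them Cnot3 (7.28%), Acin1 (6.30%), Ncbp2 (5.68%) and Ncbp1 (4.70%). Symbols came from GENCODE M21 by gene ID (16498 of 16540 matched), and promoters from RefSeq.

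Tests used limma 3.58.1 (R 4.3.3) on log2(normalised count + 1) for 16526 genes, with 1 model of 3 guides, a trend of the spread with intensity, Benjamini-Hochberg adjustment of two-sided p-values and a threshold of 0.05. A fold change is thus on the log2(value + 1) scale. There were 3 residual degrees of freedom and 17.3 prior ones (median). Alternatives, among them edgeR 4.0.16 and DESeq2 1.42.0 on recovered reads, are in the closing section. The replicates of each guide differed by more than counting error (chi-square per degree of freedom 3.06 to 4.40). The members and lists were chosen with earlier results of these data known. The naming rule gave the 9 members, Pcx and, in each list, the 2 largest and 2 smallest log2 fold changes past the threshold. It allowed at most 3 nearest pairs. Other genes of the 4 lists whose changes are named were picked after the values were seen, as said where they appear. Another gene of the naming rule and its list is not reported here. Counting intervals and floors cover counting error only.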

Additional observations from a re-analysis of the deposited data

Results flagged for a closer look

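Pcx, the targeted gene, differed between the PC guides by a log2 value of 1.05 (PC sg5 minus PC sg2; limma adjusted p = 6.60e-07), with 713 and 716 normalised counts with PC sg5 against 316 and 375 with PC sg2. Without the intensity trend of the spread the limma adjusted p of this difference was 0.328. Groups of 2 libraries were not searched for outliers.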

How the results depend on the processing

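Each result was recomputed under 16 alternatives. Between the guides, DESeq2 gave no adjusted p for 6 of the 9 members, and without the intensity trend 0 of 16526 genes passed. A members' count of 0 between the guides adds little in those settings. The counts of members called higher (6), called lower (1) and past the threshold between the guides (0) were the same in all 16. The counts of list genes past the threshold ran from 8 to 9 for the exon junction complex, 10 to 11 for termination and cofactors, 20 to 25 for the decay machinery and 14 to 15 for the substrates. The count of decay machinery genes called lower was 3 to 7. Leaving out each library in turn gave list totals of 8 to 9, 10 each time, 22 to 24 and 14 to 15. The 7 members with a call kept their direction in all 16, for example Smg5 between 0.62 and 0.70 and Upf3a between -0.26 and -0.18. Upf3b ran from -0.05 to 0.03 and Smg6 from -0.07 to 0.02, with both signs. Over all genes the count for PC sg5 against PC sg2, 40 in the model as reported, was 0 without the intensity trend, 65 with a pseudocount of 8 and also when genes under a mean of 50 normalised counts were left out, 68 with edgeR and 91 with DESeq2. It ran from 10 to 216 when 1 library was left out, with 216 without PC sg5 replicate 1. Same-numbered libraries did not deviate together over all genes (correlations of -0.02, 0.03 and 0.03 between pairs of groups). The model as reported holds no replicate block. A shared effect on some genes only would not show in these correlations. With a replicate block, 160 genes passed for PC sg5 against PC sg2, 0 of them members. The members' counts against control stayed at 6 and 1. The cause of these differences was not tested. Depth was lowest in PC sg5 replicate 2, and 2 libraries a guide leave the spread poorly known.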
